A study of Mus musculus with 71 samples.

Results

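Chromosome 11 carried 2606 of the 24244 chromatin loops (10.7%) listed for mouse synovial sarcoma (SyS), and its members were taken as every loop of that list placed on the chromosome. The chromosome was selected on its loop density, the measured number of loops per Mb, so its density and its ranks among chromosomes are given as descriptions with no test. The loops came from H3K27ac HiChIP of 2 tumors of mice expressing human SS18::SSX2 (hSS2), the fusion oncogene of the disease, which was switched on in the hindlimb by an injection of TATCre protein at day 8 of life. Each tumor was dissociated to a cell suspension, so cells other than tumor cells may have contributed. No control tissue was profiled by HiChIP, and the genotype was the same in both tumors. The loops of both tumors were merged into a single list with no value per tumor, and therefore no replicate error and no test could be had. The list restarts its chromosome order once, which splits it into a first part of 13683 loops and a second part of 10561 loops. Whether each part comes from a single tumor is not stated in the sources used here, so the parts are described side by side and are not used as replicates or as tumors.

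HiChIP ligates DNA ends that lie close together in the nucleus and then captures the ligated fragments with an antibody, here against H3K27ac, the acetylated histone H3 found at active promoters and enhancers. A loop is a pair of genomic intervals, its anchors, joined by more paired-end tags than their distance apart would give, and a tag is a single read pair that links them. H3K27ac loops therefore mainly report contacts among active promoters and between promoters and distal elements such as enhancers. Mouse chromosome 11 is rich in genes and holds the HoxB cluster of body-patterning genes, a long array of type I keratin genes and the sarcomeric myosin heavy chain genes of skeletal muscle.

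A promoter had a loop, or was looped, if an anchor lay within 2 kb of a start site of the gene, and its loop score was the number of tags summed over its loops. The sequences upstream of the start sites of Bahcc1, Ubtf, Nr1d1 and Msl1 are printed because their loops held among the most tags on the chromosome and because Nr1d1 and Msl1 were joined to each other. They were taken from RefSeq for GRCm38.p6, the same build as mm10, as the 250 bases before the start site, 5′ to 3′ on the gene's strand. Capitals mark GGGCGG or its reverse complement (the GC box bound by Sp family factors) and CCAAT or its reverse complement (the box bound by NF-Y). Among the 20 promoters with the largest loop score, 15 had an entry in the RefSeq promoter table. Ubtf had 6 listed promoters and Msl1 had 2. The printed promoter was that with its start site in or nearest to the gene's anchor with the most tags. The motif shares given below use the first promoter listed for each gene.

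Bahcc1, chr11:120232697-120232946, plus strand: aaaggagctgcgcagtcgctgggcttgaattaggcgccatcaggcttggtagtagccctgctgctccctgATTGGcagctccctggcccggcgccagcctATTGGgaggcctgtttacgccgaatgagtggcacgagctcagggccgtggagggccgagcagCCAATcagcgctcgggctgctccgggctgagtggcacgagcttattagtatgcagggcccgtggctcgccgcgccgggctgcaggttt

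Ubtf, chr11:102316706-102316955, minus strand: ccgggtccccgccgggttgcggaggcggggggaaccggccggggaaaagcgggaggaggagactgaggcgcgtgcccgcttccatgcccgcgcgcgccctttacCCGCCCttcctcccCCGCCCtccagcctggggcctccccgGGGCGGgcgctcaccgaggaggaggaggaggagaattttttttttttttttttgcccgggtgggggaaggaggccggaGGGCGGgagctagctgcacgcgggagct

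Nr1d1, chr11:98775378-98775627, minus strand: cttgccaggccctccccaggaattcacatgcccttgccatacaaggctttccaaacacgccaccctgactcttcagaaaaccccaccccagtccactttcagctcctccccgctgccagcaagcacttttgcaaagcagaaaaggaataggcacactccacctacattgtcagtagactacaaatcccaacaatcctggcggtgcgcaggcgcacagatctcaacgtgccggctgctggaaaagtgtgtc

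Msl1, chr11:98795266-98795515, plus strand: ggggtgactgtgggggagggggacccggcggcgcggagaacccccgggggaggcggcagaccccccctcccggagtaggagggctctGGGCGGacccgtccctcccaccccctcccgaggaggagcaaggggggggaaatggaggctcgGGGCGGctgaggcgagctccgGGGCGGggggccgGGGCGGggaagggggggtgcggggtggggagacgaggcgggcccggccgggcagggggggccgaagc

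The Bahcc1 sequence held 3 CCAAT boxes and no GC box, whereas Ubtf and Msl1 each held 4 GC boxes and no CCAAT box. The Nr1d1 sequence held neither. A GC box was found in 63.1% of the 704 looped protein-coding promoters of chromosome 11 that had an entry, in 28.6% of the 546 with no loop and in 32.9% of all 27025 promoters of the table. A CCAAT box was found in 36.8%, 36.1% and 34.5% of the same promoters. The median GC content was 60.4% in looped promoters and 51.2% in promoters with no loop, and the median number of CpG dinucleotides was 17 and 4. The looped promoters of the chromosome were thus richer in CpG than those with no loop, and their share with a GC box was larger. These matches are descriptions of letters in the windows and not of factor binding.

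The loops with the most tags at Bahcc1 and Kdm6b ended at intervals with no start site within 2 kb. The middle 200 bases of both intervals are printed from the GRCm38.p6 genome, plus strand, with CpG dinucleotides in capitals, to show the sequence type at the far end of these loops.

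Bahcc1 intron, chr11:120261140-120261339: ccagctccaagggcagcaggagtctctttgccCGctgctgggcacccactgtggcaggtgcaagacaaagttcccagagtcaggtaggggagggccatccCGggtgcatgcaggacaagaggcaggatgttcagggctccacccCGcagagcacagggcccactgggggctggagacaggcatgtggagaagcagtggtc

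Upstream of Kdm6b, chr11:69418409-69418608: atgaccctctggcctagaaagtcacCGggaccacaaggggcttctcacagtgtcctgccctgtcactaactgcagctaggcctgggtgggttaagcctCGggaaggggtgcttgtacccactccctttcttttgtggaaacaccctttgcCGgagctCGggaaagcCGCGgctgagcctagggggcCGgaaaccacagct

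The Bahcc1 intronic stretch held 3 CpG dinucleotides with a GC content of 64.0%, and the stretch upstream of Kdm6b held 7 with a GC content of 60%. Neither stretch overlapped an annotated exon.

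By length, chromosome 11 had 21.3 loops per Mb and 37.9 tags per Mb, the largest values of the 20 chromosomes compared. Chromosome 17 was close behind in tags, with 37.6 per Mb. The next chromosomes by loops were 17 with 20.5 loops per Mb, 19 with 17.8 and 15 with 12.1, and the chromosome with the fewest was X with 1.74. Chromosome 11 was also second in gene density, with 13.4 protein-coding genes per Mb against 13.9 on chromosome 7. Per protein-coding gene, chromosome 11 had 1.59 loops, behind chromosome 17 with 1.84 and chromosome 15 with 1.60. Chromosome 7, with the most genes per Mb, had 0.719 loops per gene. The first place of chromosome 11 by length depended on loops of 1 tag. Among loops of at least 2 tags, chromosome 17 had 4.99 loops per Mb and chromosome 11 had 4.70, and among loops with an FDR under 0.001 the values were 1.77 and 1.61. In the second part of the list alone, chromosome 19 came first with 9.93 loops per Mb and chromosome 11 followed with 9.50.

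**Figure D1:**
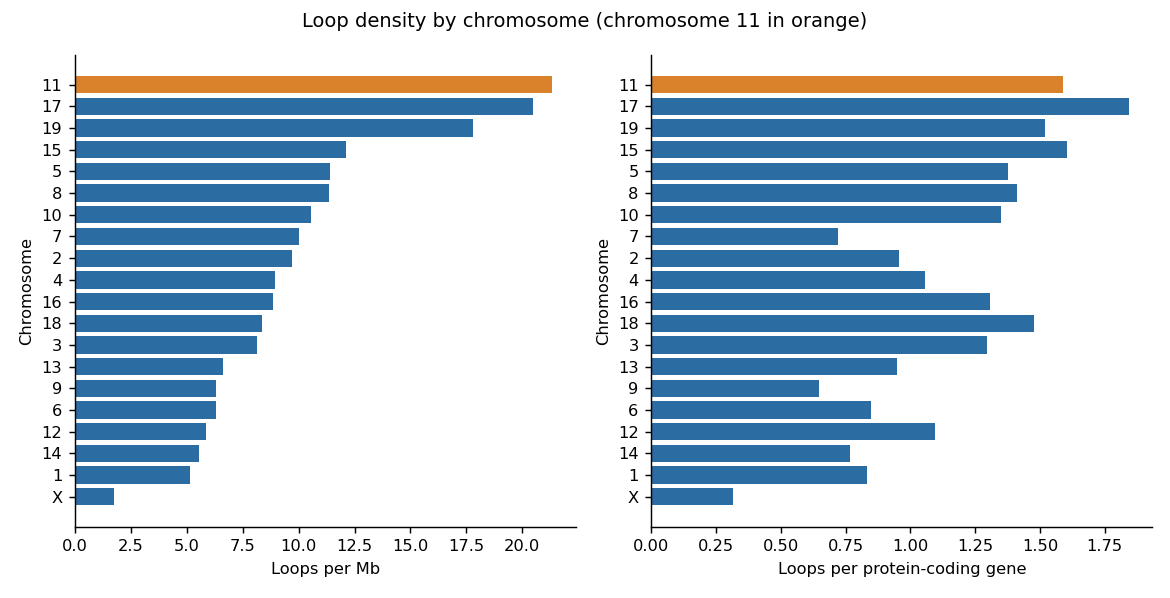
Loops per Mb (left) and loops per protein-coding gene (right) for each of 20 chromosomes, 1 bar per chromosome in the order of loops per Mb, with chromosome 11 in orange. Chromosome 11 leads by length with 21.3 loops per Mb, while chromosome 17 leads per gene with 1.84.

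Some properties of the loops were near those of the rest of the genome and others were not. Loops of 1 tag made up 78.0% (Wilson 95% interval 76.3 to 79.5) of chromosome 11 loops and 78.0% (77.5 to 78.6) of the loops elsewhere. Both anchors lay near a start site in 74.5% (72.8 to 76.2) of chromosome 11 loops and in 74% (73.4 to 74.5) of the others. Exactly 1 anchor did so in 22.6% of chromosome 11 loops, and neither did in 2.84% (2.27 to 3.55). The loops with no anchor near a start site were fewer than the 3.97% (3.71 to 4.23) elsewhere. The median span between anchor midpoints was 479 kb on chromosome 11 and 503 kb elsewhere. Loops under 100 kb were 6.25% (5.39 to 7.25) of chromosome 11 loops and 5.00% (4.71 to 5.29) of the others. On chromosome 11 they held 33.1% of the tags, with a median of 8 tags each, and elsewhere 28.3%. No interval is given for these tag shares, because the tags of a loop are not independent counts. No chromosome 11 loop of 1 tag spanned under 109.7 kb, so short loops entered the list only with more tags. These intervals cover counting error only, since the spread between tumors is unknown. The 1446 loops of the first part and the 1160 of the second differed in several of these measures. Loops with both anchors near a start site were 82.1% (80.0 to 84.0) of the first part and 65.1% (62.3 to 67.8) of the second, and the median span was 613 kb and 315 kb.

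Along the chromosome, loops were concentrated toward its distal end. The 10 densest of 123 bins of 1 Mb held 48.8% of the 5212 loop ends and 57.1% of the tag ends. They made up 8.13% of the bins and held 22.9% of the protein-coding genes. No interval is given for these shares, because the bins were chosen on these counts and the ends of a loop are not independent. The median bin had 16 loop ends and 25 bins had none. The stretch from 95 Mb to the end of the chromosome held 62.2% of loop ends in 22.2% of its length, whereas the first 61 Mb, 50.0% of the length, held 20.5%. Genes were also denser in the distal stretch, which held 36.2% of the protein-coding genes. Loop ends per gene were 5.47 there, 2.15 in the first 61 Mb and 3.18 over the whole chromosome. Across the 123 bins, loop ends and protein-coding genes had a Spearman rho of 0.800, which is given as a description because neighbouring bins share loops and libraries.

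The bin with the most loop ends ran from 96 to 97 Mb and held 6.50% of all loop ends, with Hoxb2 as its top promoter. The next was the bin from 98 to 99 Mb with 6.01%, led by Nr1d1, the circadian repressor REV-ERB alpha. The bin from 120 to 121 Mb held 5.08% of loop ends and the most tag ends of any bin, 760, and was led by Bahcc1, which encodes a chromatin-associated protein with a BAH domain. An isolated peak from 69 to 70 Mb, with 5.01% of loop ends, was led by Kdm6b, the H3K27 demethylase JMJD3. Its Kdm6b anchors lay between 1 and 2 kb from the start site, and none lay within 1 kb. This was the bin with the most protein-coding genes, 65, of which 50 were looped. The others of the 10 densest bins were led by Trim47 (116 Mb, 4.95% of loop ends), Psmb3 (97 Mb, 4.89%), Ubtf (102 Mb, 4.34%), Tnrc6c (117 Mb, 4.28%), Psme3 (101 Mb, 4.26%) and Mrpl58 (115 Mb, 3.47%). The order of these peaks did not follow gene number. Loop ends per gene were 13.9 in the bin of Tnrc6c, which encodes a partner of Argonaute in microRNA silencing, and 13 in the bin of Hoxb2, but 4.02 in the bin of Kdm6b. The parts also contributed unequally. The second part gave 32.5% of chromosome 11 tags, 57.7% of the tag ends in the bin of Hoxb2, 50.7% in that of Psme3 and between 19.5% and 30% in the other 8 bins.

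**Figure D2:**
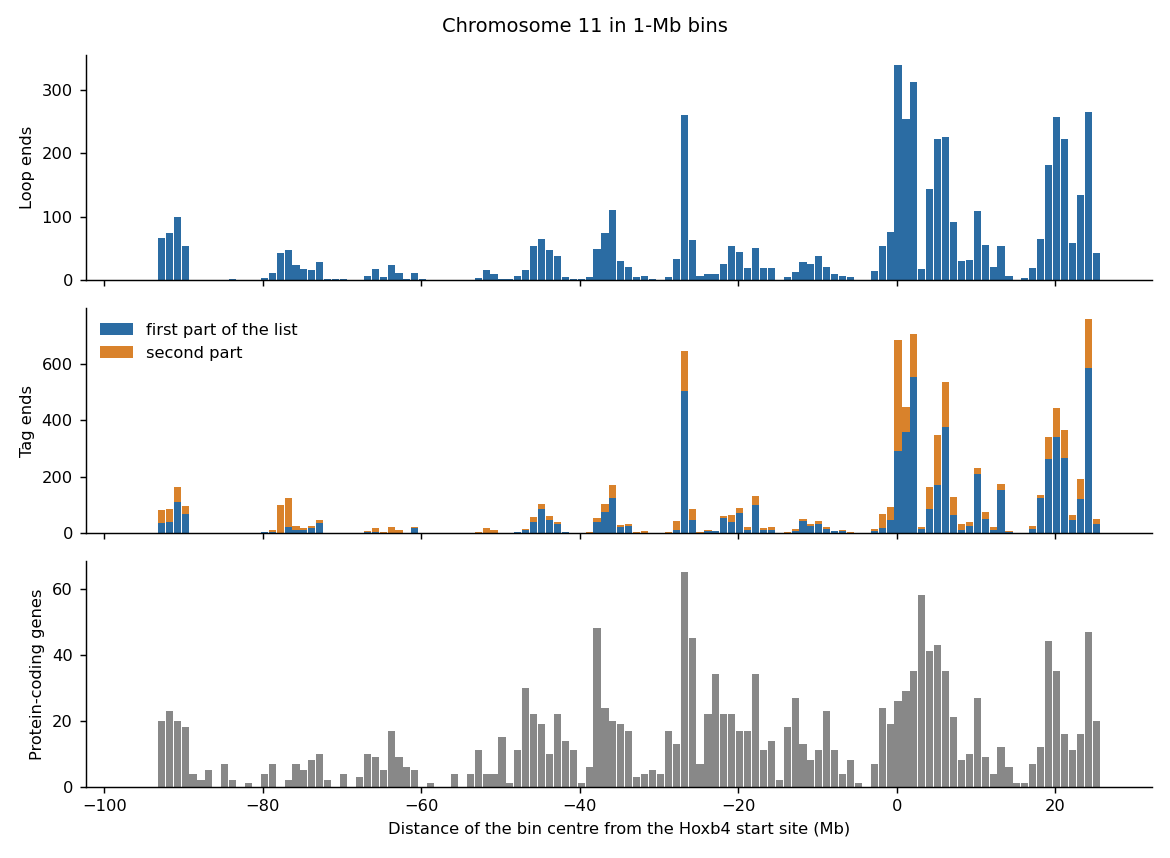
Loop ends, tag ends split by part of the list, and protein-coding genes in each 1-Mb bin of chromosome 11 (bars), against the distance of the bin centre from the Hoxb4 start site in Mb. The loops gather in narrow peaks near 0 Mb, to the right of it toward the chromosome end, and in a single bin to the left that holds Kdm6b.

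Between the peaks lay stretches with few or no loop ends. Beyond the first 3 Mb, which hold no annotated protein-coding gene, 18 protein-coding genes lay in a run of 5 bins with no loop end from 7 to 12 Mb, among them Ikzf1 (the lymphoid factor Ikaros), Igfbp1 and Igfbp3. A run of 6 empty bins from 37 to 43 Mb held 9 genes, including the cell cycle genes Hmmr and Ccng1. The bins without a loop end held 39 protein-coding genes in all. The sharpest trough lay inside the densest region. The bin from 99 to 100 Mb had 58 protein-coding genes and 18 loop ends, between neighbours with 313 and 143. It covers most of the array of type I keratin and keratin-associated protein genes, chr11:99232761-100269871, where 50 genes had 6 loop ends in 1037 kb, or 5.79 loop ends per Mb against 42.7 over the chromosome. The array was crossed by 29 loops that joined anchors on both of its sides, with 30 tags in all and at most 2 in a loop. The skeletal myosin heavy chain array, chr11:67078300-67371586, had no loop end and was crossed by no loop. By contrast the 9 clustered Hoxb genes, chr11:96271457-96368256, had 135 loop ends in 96.8 kb, or 1395 per Mb, and their 117 loops held 271 tags, 5.86% of the tags of the chromosome.

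Many loops shared anchors. Anchors were counted by identical coordinates, so overlapping anchors with different ends counted separately, and 156 of the 1498 had loops in both parts. The 2606 loops used these anchors with a mean of 3.48 loops each, against 2.82 elsewhere. Chromosomes 10 and 17 had larger means, 4.01 and 3.79. Chromosome 11 was also selected on its loop density, so its loops per anchor are not independent of that choice. At least 10 loops met at 97 anchors, 6.48% of those on chromosome 11, compared with 3.46% on the other chromosomes, and 91 of the 97 were near a start site. These 97 anchors, chosen on their number of loops, took part in 40.4% of the loops and 51.1% of the tags. The largest number of loops at an anchor was 25 on chromosome 11 and 35 elsewhere. This number was reached at Rpl19, a ribosomal protein gene, with 52 tags and at Psme3, a proteasome activator gene, with 48 tags. The next were shared by Pcgf2, a Polycomb subunit gene, and Psmb3, a proteasome subunit gene, with 23 loops and by Ewsr1, the RNA-binding gene rearranged in Ewing sarcoma, and Rhbdd3 with 22. The fifth lay at Eif4a3, which encodes an exon junction complex helicase, with 21 loops. Of the 5 anchors, those at Psme3 and Eif4a3 had tags in both parts in similar numbers (22 and 26, and 13 and 14), and those at Rpl19 and Pcgf2 had 5 tags each from the second part. When overlapping anchors were merged into 1184 loci, the order changed. The locus of Bahcc1 had 28 loops with 141 tags, that of Ubtf 28 with 84 and that of Nfe2l1, a stress-response factor gene, 26 with 30, all above the 25 loops at Rpl19 and Psme3. When loci joined by a loop were linked, the chromosome fell into 49 separate groups. The largest linked 345 loci from chr11:93884378-110339412 and held 41.0% of the tags. The second linked 227 loci from chr11:112780093-121703985 with 25.7%, and the third 164 loci from chr11:67920445-80384483 with 13.1%.

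Of 1639 protein-coding promoters on chromosome 11, 895 had a loop (54.6%, Wilson 95% interval 52.2 to 57). The background over all 20 chromosomes was 46.2%, and without chromosome 11 it was 45.5% (44.8 to 46.2). Chromosome 17 had 55.8% and chromosome 8 had 56.7%, so chromosome 11 was behind both. The other 744 promoters had no listed loop. The list holds only loops that passed the FDR of the caller, so a promoter without one may still have had tags. Looped promoters of the chromosome had a median loop score of 5, with quartiles of 2 and 12, against a median of 4 elsewhere. Tags in both parts were found for 515 of the 895 (57.5%, 54.3 to 60.7), and for 52.6% (51.6 to 53.7) of the looped promoters elsewhere. A loop score of at least 50 was reached by 32 promoters, 1.95% of those on chromosome 11, where the background over all chromosomes was 1.03%. Since chromosome 11 was selected on its loop density, these shares and scores are not independent of that choice and are given as descriptions. Among the 1372 other annotated genes, 243 were looped, including 41 of 137 miRNA genes. No share over all chromosomes is given for such genes, so these counts are not read as high or low. Genes that share an anchor share its tags and cannot be told apart by this assay.

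The 20 promoters with the largest loop score took part in 364 loops, 14% of those on the chromosome, with 24.9% of its tags. Bahcc1 had the largest loop score, 141 tags over 28 loops, with 122 tags in the first part and 19 in the second. The noncoding genes 2900052L18Rik and Gm11772 share its anchors and had the same values. Hoxb2 followed with 108 tags over 30 loops, 52 and 56 in the parts. Kdm6b had 103 tags over 22 loops, with 89 and 14. The first part gave most tags at Bahcc1 and Kdm6b, whereas the parts contributed nearly equally at Hoxb2. Ubtf, which encodes the RNA polymerase I factor UBF, had 93 tags over 32 loops. Nr1d1 had 89 over 19 loops, and Slc25a39, a mitochondrial carrier gene for glutathione, had 82 over 17. Psmb3 reached 74 tags through the most loops of these genes, 33, and with at most 13 tags in any of them. These scores depended on the window around the start site. With anchors within 1 kb in place of 2 kb, the score of Kdm6b was 0, that of Hoxb2 was 60 and that of Psmb3 was 25, while Bahcc1, Ubtf, Nr1d1 and Slc25a39 kept theirs. The 20 thus differed in how their score arose, from a few loops with many tags to many loops with few.

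Transcription factor genes of the HoxB cluster and their partners were prominent among the rest of the 20. Hoxb3 had a loop score of 80, Hoxb4 of 63, and Hoxb5 and Hoxb7 of 54 each. Hoxb genes share anchors and loops, so their scores count some tags more than once. The same loop of 15 tags was the top loop of Hoxb2, Hoxb3 and Hoxb4. The 10 genes of the HoxB list had 265 distinct tags near their start sites in all. Meis1, which encodes a TALE homeodomain cofactor of Hox proteins, had a loop score of 68, with 12 tags in the first part and 56 in the second. Hoxb5 likewise had 11 tags in the first part and 43 in the second. The opposite held for Rara, the retinoic acid receptor alpha gene, with 57 and 7, and for Hoxb4, with 57 and 6. The remaining genes were Grn, the progranulin gene (60), Alyref, an mRNA export gene, and Anapc11, an anaphase-promoting complex gene, which share their anchors (58 each), Msl1, of a histone H4 acetyltransferase complex (57), Trim47 (56), Atxn7l3, of the SAGA deubiquitinase module (55), and H3f3b, which encodes histone H3.3 (54). Within 1 kb the scores were 33 at Hoxb3, 22 at Hoxb5, 26 at Hoxb7, 19 at Trim47 and 16 at H3f3b. The second part gave more than its chromosome-wide share of tags, 32.5%, at 5 of the 20, which were Meis1 and the 4 Hoxb genes Hoxb2, Hoxb3, Hoxb5 and Hoxb7, and less at the other 15.

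**Figure D3:**
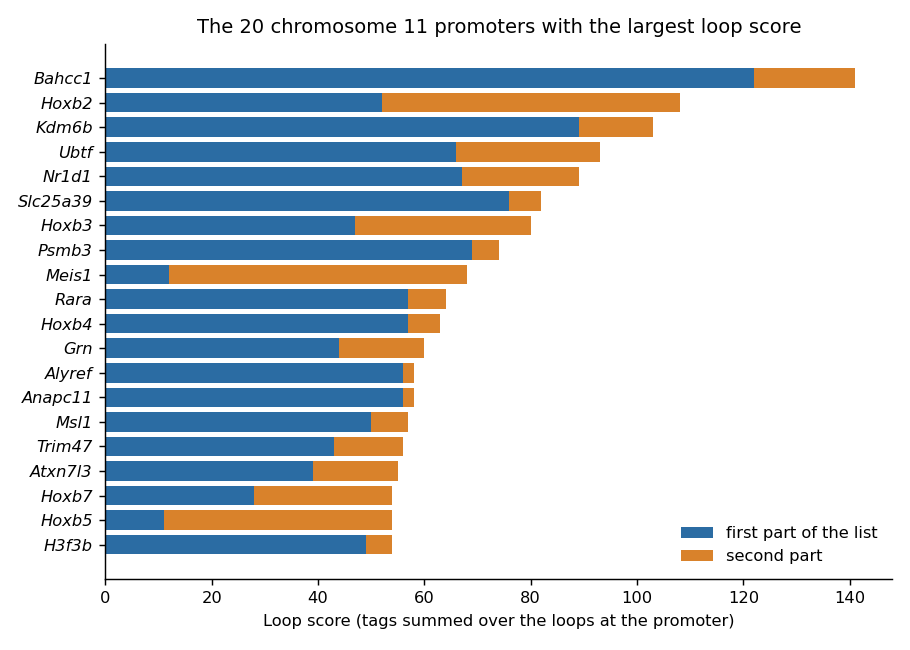
Loop score in tags of the 20 protein-coding promoters of chromosome 11 with the largest values, stacked by part of the list. Bahcc1 leads with 141 tags, and Meis1 and Hoxb5 stand out for their large second-part share.

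The 20 loops with the most tags held 449 tags, 9.71% of those of the chromosome. All 20 spanned under 100 kb, all lay in the first part, and 13 joined anchors that were both near a start site. The loop with the most tags, 49, joined the Bahcc1 promoter anchor chr11:120232689-120239556 to an interval 25.1 kb away in a Bahcc1 intron, chr11:120258562-120263916. No loop of the second part overlapped it at both anchors. The Bahcc1 promoter also met the start site of the noncoding gene 2810410L24Rik in a loop of 32 tags spanning 46.4 kb, and a loop of the second part with 6 tags overlapped this pair. The second loop by tags, with 44, joined chr11:69409166-69412125 in a Kdm6b intron near its start site to the intergenic interval chr11:69417150-69419866 on the other side of the start site, 7.86 kb apart. The matching loop of the second part had 5 tags. Kdm6b was joined in the other direction to the shared anchor of Cyb5d1, Naa38 and Tmem88 by 24 tags over 15 kb, again with 5 tags in the second part. The fourth loop, with 27 tags over 10.1 kb, joined the anchor of Tlcd1, Nek8 and the ribosomal protein gene Rpl23a to Rab34, a small GTPase gene needed for cilia, and had no overlapping loop in the second part. Ubtf and Slc25a39 were joined by 25 tags over 90.7 kb, with 2 tags in the second part. Nr1d1 and Msl1 were joined by 23 tags over 20.4 kb, with 4 in the second part. Of the 20, 5 were overlapped by a loop of the second part at both anchors. Over the whole chromosome 88 of the 1446 loops of the first part had such a partner (6.09%, 4.97 to 7.44), and elsewhere 6.55% (6.13 to 7.01) did. Among first-part loops of at least 4 tags the share was 15.8% (10.7 to 22.5).

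**Figure D4:**
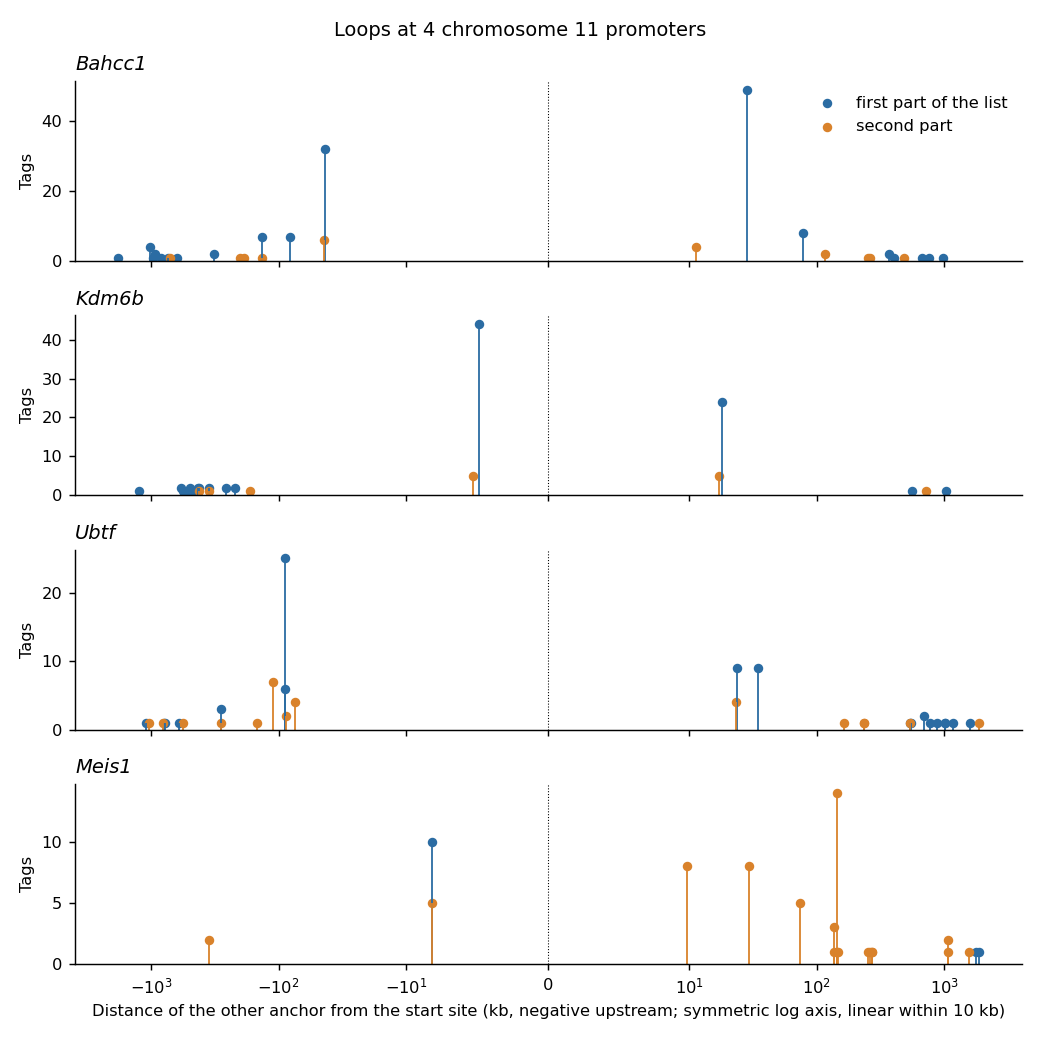
Tags of each loop at the promoters of Bahcc1, Kdm6b, Ubtf and Meis1 (points) against the distance of the other anchor from the start site in kb, on a symmetric log axis with upstream as negative, colored by part of the list. The tallest loops lie within 100 kb, except at Meis1, where a second-part loop of 14 tags ends over 100 kb downstream.

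A pair of stretches of the chromosome rested almost wholly on the second part. Skap1, a T-cell adaptor gene that lies next to the HoxB cluster at chr11:96464593-96759130, had 74 loops with an anchor inside it, which held 101 tags, 7 in the first part and 94 in the second. None of its 12 anchors was near a start site. Of the 74 loops, 43 joined Skap1 to the clustered Hoxb genes, with 64 tags, 5 in the first part and 59 in the second. The anchor far from any start site with the most loops on the chromosome was the Skap1 intron interval chr11:96537350-96542390, with 15 loops and 25 tags, all in the second part. Loops with both anchors in the Hoxb genes themselves were shared more evenly, with 74 tags in the first part and 61 in the second. In the stretch of Meis1, from 18 to 20 Mb, 15 tags came from the first part and 108 from the second (87.8% of its tags, against 32.5% over the chromosome). Its loop with the most tags, 14, joined the Meis1 promoter anchor chr11:19013083-19024543 over 142 kb to the start site of the noncoding gene 8430419K02Rik and lay in the second part. A shorter Meis1 loop, to the interval chr11:19025612-19028646 upstream of its start site, was found in both parts with 10 and 5 tags. Since the parts could not be assigned to tumors, these values do not describe a difference between the tumors.

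Anchors far from start sites were 324 of 1498. Of these, 180 lay inside genes and 144 outside, at a median of 12.4 kb from the nearest start site. They had a median of 2 loops each, against 3 for anchors near a start site. After the Skap1 interval, the far anchor with the most loops was the Rara intron interval chr11:98967207-98971186, with 14 loops and 61 tags, all in the first part. It was joined to the Rara promoter by 17 tags over 31.5 kb and to that of Cdc6, a replication licensing gene, by 16 tags over 45.7 kb. The median GC content was 53.1% in anchors near start sites, 48.4% in far anchors and 43.6% in tiles of the same median width, 2553 bases, over the chromosome. All but 1 anchor held a GATC, the site cut by MboI in this assay, with a median of 5 per anchor. The core consensus of CTCF, the insulator protein at whose sites many loops end, was searched on both strands. It was found in 5.01% (4.01 to 6.23) of the anchors, in 7.10% (4.78 to 10.4) of far anchors and in 1.81% of the tiles. Only 4 loops had a single motif direction at each anchor, of which 1 was convergent, too few to describe an orientation.

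In the second part alone, whose loops held at most 14 tags, the loop with the most tags was that of Meis1. It was followed by a loop of 11 tags over 6.69 kb with both anchors near the start sites of Hoxb2. A loop of 9 tags joined Nr1d1 to the intergenic interval chr11:98782329-98787034 over 10.1 kb. Loops of 8 tags lay at Meis1, at Hoxb5 and Hoxb6, and between Gm24950 and Gm23971. Among the loops of 7 tags, 1 joined Ubtf to Grn over 113 kb, and others lay at Ewsr1 and Rhbdd3 and at Hoxb2 and Hoxb3. Hoxb2, Nr1d1, Ubtf and Meis1 were thus among the genes with leading loops of this part. In the first part the leading loop of each had a different partner. That partner was Msl1 for Nr1d1 (23 tags), Slc25a39 for Ubtf (25), Hoxb4 for Hoxb2 (15) and the interval upstream of its start site for Meis1 (10).

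Below the first 20 promoters, loop scores declined slowly. Nek8, a ciliary kinase gene, and Unk, a zinc finger gene, had 53 tags each, and Rpl19 had 52. The lowest score among the first 60 promoters was 34 tags, the score of Hoxb8. Several neighbours had equal scores because they share an anchor, among them Ewsr1 and Rhbdd3 with 49. Psme3 and Hoxb6 were unusual among these genes in having more tags in the second part, with 22 and 26 tags at Psme3 and 6 and 41 at Hoxb6. Tlcd1 and Rpl23a, by contrast, had 46 tags over only 8 loops.

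Long loops had few tags. The loop with the most tags among those longer than the median span had 7 and joined Sdk2, a cell adhesion gene, to the ribosomal protein gene Rpl38 over 603 kb. Loops of 4 tags joined Kpnb1, the importin beta gene, to Rpl19 over 839.5 kb and Hoxb9 to Nfe2l1 over 558 kb.

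By function, the share of looped promoters ran from none to all of a list, beside 46.2% over the genome and 54.6% over chromosome 11. The 9 genes for Polycomb subunits, BAF subunits and the H3K27 demethylase were all looped, with a median loop score of 11. Kdm6b had 103 tags, none of them within 1 kb of its start site, Pcgf2 had 49, Smarcd2, a BAF subunit gene, had 28, and the core PRC2 gene Suz12 had 1. Tumor suppressor, DNA repair and cell cycle genes were looped in 17 of 18 cases, with Stat5a as the exception. Cdc6 had 50 tags and Ewsr1 had 49, whereas Trp53, which encodes p53, had 16 and Brca1 had 15. Housekeeping genes were looped in 16 of 17 cases, all but Nme2, led by H3f3b with 54 tags and Psmd3 with 41. A list made by the symbol prefixes Rpl and Rps, which mostly name ribosomal protein genes, had 8 of 9 looped, the exception being Rpl9-ps1, and its median loop score was 29. It includes Rps6kb1, the gene of an S6 kinase and not of a ribosomal protein, with 3 tags. Rpl19 had 52 tags, Rpl23a had 46 and Rpl23 had 38. In the HoxB list 9 of 10 were looped, and Hoxb13, which lies apart from the others, was not.

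Other lists were near the background shares. Among 26 developmental transcription factor genes outside HoxB, 12 were looped (46.2%, Wilson 95% interval 28.8 to 64.5), a share equal to the genome background. Meis1 with 68 tags stood far above the next, the ETS factor gene Etv4 with 12, and the chondrogenic factor gene Sox9 had 3. The 14 with none included Tbx4, a hindlimb patterning gene, and Hand1 and Lhx1. Of 21 growth factor and Wnt signaling genes 11 were looped (52.4%), near the 54.6% of the chromosome, led by the Wnt receptor gene Fzd2 with 44 tags, the JAK-STAT inhibitor gene Socs3 with 32 and the receptor kinase gene Erbb2 with 28. Wnt3, Wnt3a, Wnt9a and Wnt9b had none. Of 9 extracellular matrix and adhesion genes 5 were looped (55.6%), again near the chromosome share, none with more than 3 tags, and the collagen gene Col1a1 and the matricellular gene Sparc had none.

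Several large gene families had almost no listed loops. None of 82 olfactory receptor genes was looped (0%, Wilson 95% upper limit 4.48), and neither was any of 23 keratin-associated protein genes (upper limit 14.3) or 11 CC chemokine genes (upper limit 25.9). Of 27 type I keratin genes, which are known mainly from epithelia, 1 was looped, Krt10 with 6 tags. Among markers of other cells that a tumor suspension could hold, none of 10 skeletal muscle genes (upper limit 27.8) and none of 6 blood and endothelial genes was looped, including Cd68 of macrophages and Pecam1 of endothelium. Fewer cells of a type and fewer loops per cell cannot be told apart in these bulk samples.

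The study had sorted genes by expression in the mesenchymal cells of origin and in transformed SyS cells. Its maintained active transcription (MAT) genes are expressed in both, and its sarcomagenesis activated transcription (SAT) genes only in the latter. On chromosome 11, 23 of 26 MAT genes were looped (88.5%, 71.0 to 96), with a median loop score of 4.5, led by Tnrc6c with 51 tags and Mafg with 29. Of 16 SAT genes 12 were looped (75%, 50.5 to 89.8), with a median of 2, led by Hoxb3 with 80 tags, Hoxb4 with 63 and Hoxb9 with 26. The SAT genes Lhx1, Prr15l, Grb7 and Krt15, which is also among the type I keratins, had none. The intervals of the lists overlapped, and the study chose both lists on expression in the same disease, so they are not independent evidence.

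**Figure D5:**
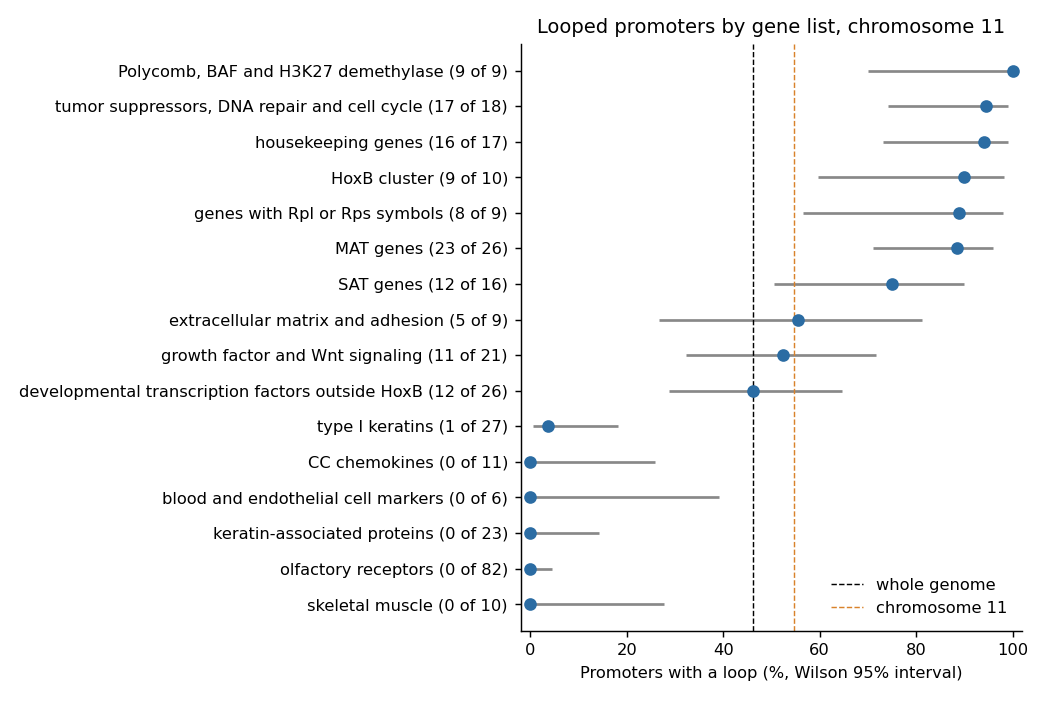
Percent of promoters with a loop (points, with Wilson 95% intervals as bars) for 16 gene lists on chromosome 11, with the number looped and the list size beside each name. Dashed lines mark the whole genome (46.2%) and chromosome 11 (54.6%), and the lowest 6 lists have at most 1 looped member.

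Among miRNA genes of the chromosome, loops at 4 well-studied ones are shown with their mature sequences from RefSeq, seed (bases 2 to 8) in capitals. Their loop scores ran from 63 to 1, below the largest of the miRNA genes, 82 at Mir6930. The seeds of the 4 all differed.

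mmu-miR-10a-5p: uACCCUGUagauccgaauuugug

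mmu-miR-195a-5p: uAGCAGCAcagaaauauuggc

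mmu-miR-22-3p: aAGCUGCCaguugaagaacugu

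mmu-miR-21a-5p: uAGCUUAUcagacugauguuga

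Mir10a, at chr11:96317165-96317274 beside Hoxb4, had 63 tags over 14 loops, all through the anchor it shares with Hoxb4. Mir195a had 23 tags over 15 loops. Mir22 had 11 tags over 9 loops, and Mir21a, which encodes an oncogenic miRNA, had a single tag. A start site listed for a miRNA gene is that of its hairpin, so these counts describe the neighbourhood of the hairpin and not the promoter of its primary transcript.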

How the data were processed

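HiChIP with an antibody against H3K27ac was made from 2 hSS2 tumors after MboI digestion. The authors mapped reads to mm10 with HiC-Pro and called loops with hichipper and its Mango step, and the deposited list merges both tumors. It gives 1-row loops with 2 anchors, a count of paired-end tags as deposited (whole numbers, not normalized) and the q-value (FDR) of the authors' caller, at most 0.05. A supplementary legend of the study describes loops called for 2 tumors and then merged, at a stricter FDR cutoff than its methods give. The deposited list holds loops above that stricter cutoff. The rule by which loops were merged and the read depth are not given in the sources used here.

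Anchors were assigned to genes by GENCODE vM21 start sites within 2 kb on 20 chromosomes (53843 genes, 21755 protein-coding). Loop ends were counted in 1-Mb bins by anchor midpoint, 2 per loop. Intervals are Wilson 95% intervals for shares and cover counting error only, and tags were not corrected for amplification. No tests were made, since the list holds no replicates. Named genes were the 20 promoters of largest loop score, the top promoter in the 10 densest bins, the genes at the 5 anchors with most loops and the 5 loops with most tags, and listed genes. Genes outside that rule, such as those at long loops, Skap1 and the miRNA genes, were chosen after their values were seen. Members and gene lists were chosen with earlier results of these data known. Promoter sequences came from a RefSeq table in which 1250 of 1639 protein-coding genes of chromosome 11 had an entry. Gene assignment was tested on simulated data. Python 3.11.15, pandas 2.3.3, numpy 2.4.6, scipy 1.17.1 and networkx 3.6.1 were used. Alternatives were filters on tags, FDR and span, each part alone, repeated anchor pairs counted once, other promoter windows and start sites, shifted bins and tags in place of loops. A few genes are not reported here.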

Additional observations from a re-analysis of the deposited data

How the results depend on the processing

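No paired analysis was possible because the list holds no value per tumor. Loop density was 4.70 loops per Mb with at least 2 tags, 1.61 with an FDR under 0.001, 11.8 in the first part, 9.50 in the second, 16.7 with spans up to 1 Mb and 37.9 as tags. Loops per protein-coding gene were 0.350, 0.120, 0.882, 0.708, 1.25 and 2.82 in the same order, and 1.52 without loops at the HoxB cluster. The filtered values are lower because fewer loops enter. The share of loop ends in the 10 densest bins was 57% with at least 2 tags, 55.1% with an FDR under 0.001, 51.8% with spans up to 1 Mb, 57.1% as tags and 43.7% with bins shifted by 500 kb. The share of looped promoters was 28.3% with at least 2 tags, 15.6% with an FDR under 0.001, 41.1% in the first part, 45.0% in the second and 51.9% with spans up to 1 Mb. The share of loops with both anchors near a start site was 77.5%, 78.1%, 82.1% and 65.1% under the first 4 settings, 71.7% with a 1-kb window, 78.3% with 5 kb and 69.2% with protein-coding start sites only. The median span was 210.0 kb, 303 kb, 613 kb, 315 kb and 385 kb under the tag, FDR, first-part, second-part and 1-Mb settings. The share of tags at HoxB was 7.52%, 7.94%, 3.78% and 10.2% under the first 4. The share of convergent CTCF pairs, 25% of 4 loops, was 0% in the first part and 50% in the second and with spans up to 1 Mb, and the tag and FDR filters left no pair. Counting repeated anchor pairs once moved none of the 8 measures. The causes of the other shifts were not tested.

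Loops of 1 tag made up 78.0% of the chromosome's list, so a missing or extra tag adds or removes a loop, and loops of 1 tag entered only at long spans. Of the 20 promoter scores, 8 moved beyond their counting interval with a 1-kb window. That interval takes tags as independent counts, which the tags of a loop are not, so it is too narrow. Kdm6b went to 0, H3f3b to 16, Trim47 to 19, Psmb3 to 25, and Hoxb5 had 22, Hoxb7 had 26, Hoxb3 had 33 and Hoxb2 had 60.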
